A study of Rattus norvegicus with 6 samples.

Results

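Interferon-stimulated genes are the genes that cells switch on when interferon, a cytokine released during viral infection and inflammation, binds its receptor. A set of 39 such genes was chosen by name, and all 39 were found in the deposited gene table, in 38 of its 44746 rows, because Ifitm2 and Ifitm3 share a single row with Ifitm5. Where several rows carried a name, the protein-coding row with the highest mean FPKM (a level scaled by gene length and library size) was taken. The samples were condylar cartilage of the jaw joint from female Sprague-Dawley rats, 6 weeks old when the experiment began and sampled after 8 weeks. The CON group (n = 3 libraries) is labelled as control, with no statement of a sham procedure, and the UAC group (n = 3 libraries) had received a unilateral anterior crossbite, a one-sided change of the bite at the front teeth that serves as a model of osteoarthritis of this joint. Procedures were done under sodium pentobarbital anaesthesia, and no transgene was involved. The sources do not tie the rats to the libraries, so the p values below measure the spread between these libraries, which may be technical in part.

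Type I interferon signals through the kinases Jak1 and Tyk2, which activate factors such as Stat2. Stat2 and Irf9 are parts of the complex that binds the interferon-stimulated response element (ISRE) in the promoters of target genes, and Irf7, itself a target, then drives further interferon production. The induced proteins detect viral RNA, degrade it, block its translation or hold viruses at membranes. Cartilage is poor in immune cells, whereas the bone marrow and synovium next to it are rich in them.

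Gene counts totalled 71524713 to 86523541 per library. Col2a1, the main collagen of cartilage, was the most abundant of 14 chondrocyte markers, whose summed level was 1894 to 2856 FPKM in CON against 1586 to 2968 FPKM in UAC, and Matn1 was at or near 0. Genes of red blood cells and their precursors were abundant too. The summed level of 7 erythroid rows was 2432 to 4679 FPKM in CON against 3799 to 4613 FPKM in UAC. The row of Hba-a1 and Hba-a2 averaged 2573 FPKM in CON and 3112 FPKM in UAC, above Col2a1 at 1447 and 1448 FPKM. How far RNA of blood or marrow entered the levels below was not tested. The library of UAC replicate 1 had the lowest mean Pearson correlation to the other 5 libraries, by a small margin. The correlation was 0.894 (log2 of FPKM plus 0.1 across 30668 genes), where the others had 0.899 to 0.905. That library also had the highest summed level of 13 muscle gene rows, 313 FPKM. The sum was 41.6 and 34.9 FPKM in UAC replicates 2 and 3 and 94.4 to 201 FPKM in CON. The counts of rows and the values that this library moved most are also given without it.

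Irf7 and the IFIT genes lay higher in UAC, while most of the other interferon-stimulated genes differed little between the groups. Of the 38 rows, 8 were higher in UAC at an unadjusted p under 0.05 in edgeR's quasi-likelihood test (21.1%), where 4.69% of the 30668 genes tested and 3.81% of the 15001 protein-coding genes were. The 8 were Irf7, Ifit1, Ifit2, Ifit3, Oas2, Oasl, Rsad2 and Parp14. The only lower row was that of Ifitm2 and Ifitm3, 1 of 38 (2.63%), where 4.39% of all tested genes and 6.57% of protein-coding genes were lower. At the thresholds of the study, which add an absolute log2 fold change above 1 to the same p, there were 3 higher rows (Irf7, Ifit3 and Oas2) and 0 lower ones, where 1.20% of all tested genes and 0.833% of protein-coding genes were higher and 0.681% of all tested genes lower. The study had singled out these 3 genes on the same libraries, so their size here is not independent evidence.

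No row passed after Benjamini-Hochberg adjustment over all tested genes in edgeR (0 of 38 at an adjusted p under 0.05, where 0.00978% of all tested genes were called higher and 0.00978% lower). In limma on log2 FPKM 0 rows passed as well, and 7 were higher with 1 lower before adjustment. DESeq2, at the same adjusted threshold, called 3 of the 38 rows higher (Irf7, Ifit1 and Ifit3) and none lower, where it called 0.717% of all tested genes higher and 0.447% lower. All 38 rows passed the filter, a mean of at least 0.1 FPKM over the 6 libraries, with 76 to 10886 counts per library. In whole tissue, a change in the RNA of each cell and a change in the share of cells that carry the RNA cannot be told apart.

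**Figure D1:**
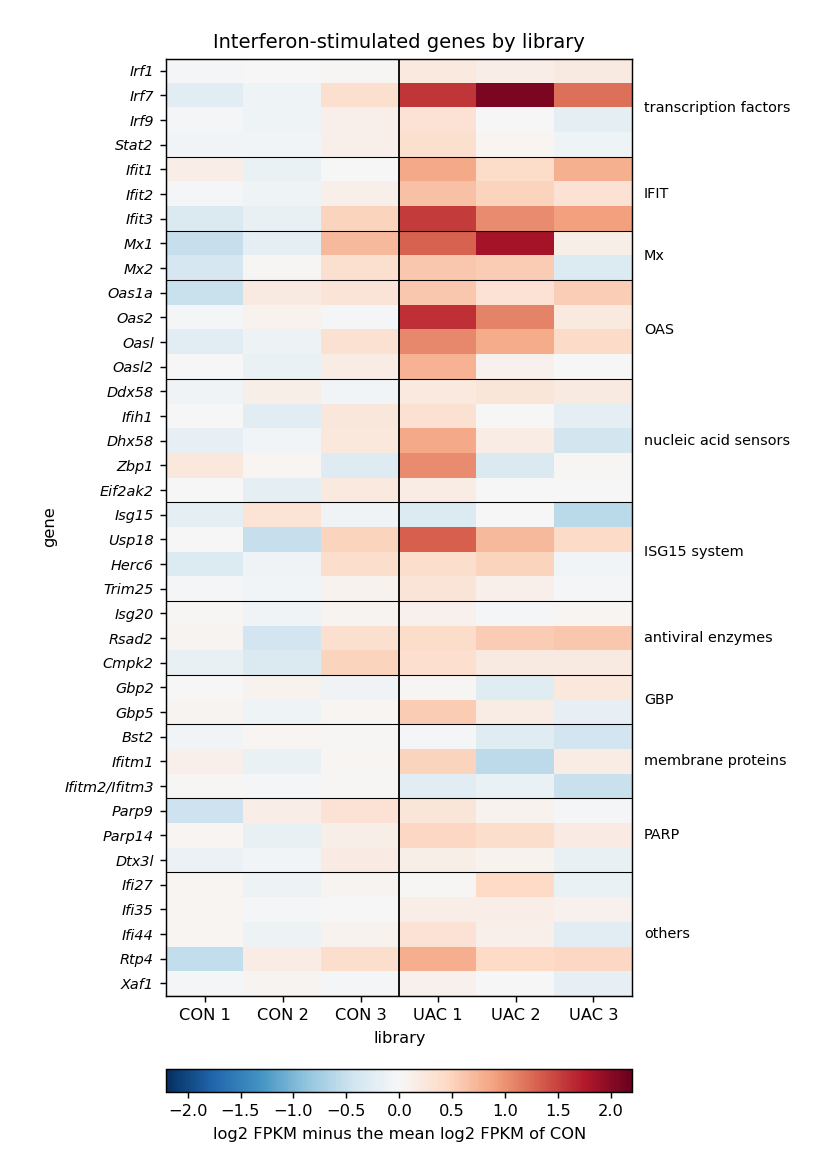
Each cell is the log2 FPKM of a gene (rows, grouped by role) in a library (columns) minus the mean log2 FPKM of that gene in the 3 CON libraries, with red above and blue below that mean. Irf7 and Ifit3 are red in all 3 UAC libraries, and the UAC column with the most red is that of replicate 1, whose median over the 38 rows was 0.38.

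Irf7, the transcription factor that amplifies the interferon response, showed the largest difference of the 38 rows. Its level was 1.06, 1.17 and 1.60 FPKM in CON replicates 1, 2 and 3 and 3.76, 5.28 and 2.92 FPKM in UAC replicates 1, 2 and 3. Every UAC library was above every CON library. The means were 1.28 ± 0.287 FPKM in CON against 3.99 ± 1.20 FPKM in UAC (SD, n = 3 each). The difference was 3.04-fold in counts, a log2 fold change of 1.60 (standard error, SE, 0.27, 95% interval 0.96 to 2.24, edgeR adjusted p = 0.423). In DESeq2 the log2 fold change was 1.61 and the adjusted p = 2.80e-06. Irf7 lies on chromosome 1 from 214248837 to 214253011 on the minus strand in the coordinates of the gene table, whose genome build is not given in the sources used here. Its span meets that of Phrf1 on the opposite strand.

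The rows of the other transcription factors did not follow Irf7. Irf1, which is induced most strongly by interferon gamma, was at 9.42, 9.62 and 9.86 FPKM in CON against 11.1, 10.6 and 10.99 FPKM in UAC. Its groups did not overlap, but the difference in counts was small, with a log2 fold change of 0.14 (95% interval -0.04 to 0.31, edgeR adjusted p = 0.618). Stat2 was at 8.04 ± 0.567 FPKM in CON against 8.68 ± 1.38 FPKM in UAC, with overlapping groups. The row that holds Irf9 also holds its neighbour Rnf31, and it was at 4.02 ± 0.307 FPKM in CON against 4.18 ± 0.750 FPKM in UAC, with overlapping groups. The 95% intervals of the log2 fold change were -0.20 to 0.33 for Stat2 and -0.28 to 0.30 for the row of Irf9, so a 2-fold difference lay outside both. For the latter row this covers Irf9 and Rnf31 together and does not bound Irf9 alone.

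All 3 IFIT genes were higher in UAC at an unadjusted p under 0.05. Their proteins bind viral RNA and block its translation, and the genes are neighbours on chromosome 1. Ifit3 was at 1.37, 1.54 and 2.40 FPKM in CON against 4.98, 3.52 and 3.22 FPKM in UAC. Each UAC value was above each CON value, and CON replicate 3 was well above the other CON libraries. The log2 fold change of Ifit3 was 1.09 (SE 0.25, 95% interval 0.50 to 1.69, edgeR adjusted p = 0.448). Ifit1 was at 2.64, 2.15 and 2.38 FPKM in CON against 4.22, 3.16 and 4.12 FPKM in UAC, with a log2 fold change of 0.63 (SE 0.14, edgeR adjusted p = 0.448). Ifit2, the most abundant of the family, was at 2.80, 2.69 and 3.10 FPKM in CON against 4.49, 3.996 and 3.57 FPKM in UAC, with a log2 fold change of 0.45 (SE 0.11, edgeR adjusted p = 0.452). For Ifit1 and Ifit2, too, no UAC value fell within the CON range. In DESeq2 the adjusted p was 0.00550 for Ifit3, 0.0163 for Ifit1 and 0.0845 for Ifit2. The span of Ifit1 meets that of Ifit1bl, a related gene on the opposite strand, and reads of near-identical family members may have been split between rows.

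**Figure D2:**
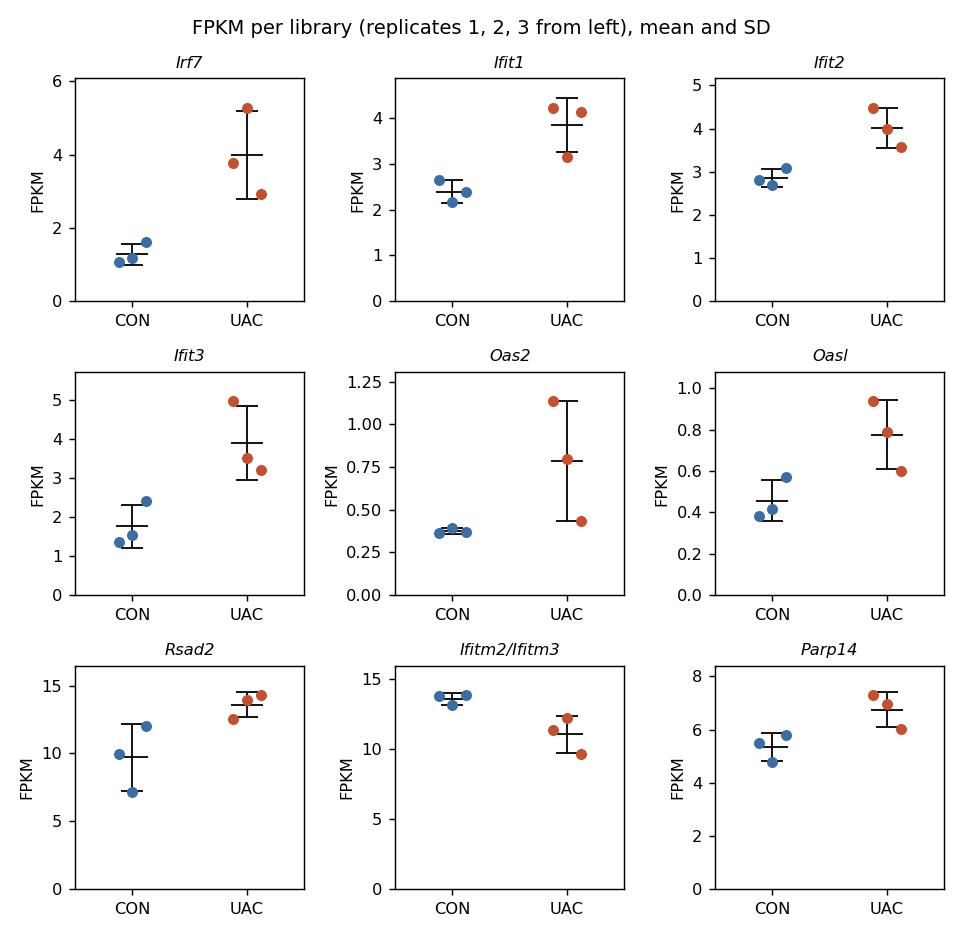
FPKM per library (points, replicates 1 to 3 from left) with the group mean and SD (bars) for the 9 rows with an unadjusted p under 0.05 in edgeR. The groups do not overlap in any panel, though the highest CON and the lowest UAC value are close for Oas2 (0.393 and 0.432 FPKM) and Rsad2 (12.05 and 12.5 FPKM).

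The promoters were read from RefSeq (build GRCr8) to show which genes carry the ISRE. A promoter of 250 bases before the start was found for 28 of the 39 genes. Ddx58, Dhx58, Ifit1, Ifit2, Ifitm1, Isg15, Mx2, Oas2, Rtp4, Usp18 and Zbp1 were not matched. The letters of the ISRE, searched as GAAA, any 2 bases and GAAA again on both strands (so TTTC, 2 bases and TTTC on the other), were found in 17 of the 28 (60.7%) and in 3.41% of all 33469 promoters of the same length. The genes were chosen as interferon targets, so this share describes the set and is not a finding about the cartilage. Of the promoters with the letters, 4 belong to genes with higher levels in UAC (Irf7, Ifit3, Rsad2 and Parp14, of 5 such promoters), 2 to Ifitm2 and Ifitm3, and 11 to genes that did not pass (of 21).

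The proximal promoters of Irf7 and Ifit3, the genes with the largest differences among the rows past the unadjusted threshold, are shown from 150 bases before the start up to the start, in the direction of the gene, with the ISRE letters in capitals. They lie at chr1:205800024-205800173 on the minus strand for Irf7 and at chr1:241527176-241527325 on the plus strand for Ifit3 in GRCr8.
Irf7: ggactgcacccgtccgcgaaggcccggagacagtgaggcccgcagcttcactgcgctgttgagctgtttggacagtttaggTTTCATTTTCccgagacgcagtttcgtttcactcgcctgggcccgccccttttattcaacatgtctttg
Ifit3: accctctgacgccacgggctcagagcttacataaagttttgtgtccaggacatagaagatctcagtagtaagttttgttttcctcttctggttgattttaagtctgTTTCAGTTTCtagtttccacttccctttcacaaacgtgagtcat
In both, the match reads on the opposite strand, and it begins 69 bases before the start in Irf7 and 44 in Ifit3.

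Shorter stretches around the match nearest the start compare genes with higher levels in UAC (Rsad2 and Parp14) with genes that also carry the letters but did not pass the test (Oas1a, Eif2ak2, Ifih1, Gbp2 and Bst2) and with Ifitm3. Each is written in the direction of the gene, with its match in capitals. In GRCr8 they lie on the plus strand at chr11:78408048-78408077 (Parp14), chr12:41330421-41330450 (Oas1a), chr6:21941128-21941153 (Eif2ak2) and chr2:234005686-234005715 (Gbp2), and on the minus strand at chr6:48788248-48788277 (Rsad2), chr3:67684008-67684037 (Ifih1), chr16:18255073-18255102 (Bst2) and chr1:205541783-205541812 (Ifitm3).
Rsad2: ctggttcaacTTTCATTTTCagaaaacaga
Parp14: tccaggaaatGAAAGTGAAAgaagtaagtt
Oas1a: tcggGAAATGGAAACTGAAAatcttgttcc
Eif2ak2: agtccgccggGAAAACGAAAcagaga
Ifih1: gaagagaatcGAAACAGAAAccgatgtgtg
Gbp2: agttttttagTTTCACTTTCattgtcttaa
Bst2: ccagGAAAATGAAACTGAAAggtggcagca
Ifitm3: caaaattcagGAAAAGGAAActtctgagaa
Oas1a and Bst2 each hold 2 overlapping matches. The match in Rsad2, TTTCATTTTC, has the same 10 letters as that in Irf7. A match of letters does not show that a factor binds there.

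Of the OAS family, Oas2 and Oasl were higher and Oas1a and Oasl2 did not pass. OAS enzymes make short 2'-5' linked adenosine chains that activate the nuclease RNase L when they meet double-stranded RNA, and the OAS-like proteins are their relatives. Oas2 was at 0.362, 0.393 and 0.369 FPKM in CON against 1.14, 0.796 and 0.432 FPKM in UAC. The CON values were tightly grouped, while the UAC values spread from just above them in replicate 3 to the highest in replicate 1. The log2 fold change of Oas2 was 1.01 (SE 0.35, 95% interval 0.18 to 1.85, edgeR adjusted p = 0.513), and 0.69 without UAC replicate 1. Oasl was at 0.384, 0.416 and 0.569 FPKM in CON against 0.937, 0.788 and 0.602 FPKM in UAC, with a log2 fold change of 0.72 (SE 0.26, edgeR adjusted p = 0.515). Oas1a had 1.52, 2.44 and 2.60 FPKM in CON against 3.21, 2.64 and 3.11 FPKM in UAC, which do not overlap but miss the threshold, with a 95% interval of -0.12 to 0.93. Oasl2, the most abundant of the family, had 2.97, 2.68 and 3.32 FPKM in CON against 5.07, 3.19 and 2.99 FPKM in UAC, so that only replicate 1 exceeded the CON range. Its log2 fold change was 0.28, and 0.03 without UAC replicate 1.

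The Mx genes encode dynamin-like GTPases that trap incoming viral particles. Mx1 was at 0.390, 0.482 and 0.905 FPKM in CON against 1.36, 1.98 and 0.602 FPKM in UAC. UAC replicate 3 lay below CON replicate 3, so the groups overlapped in spite of a log2 fold change of 1.12 (95% interval -0.06 to 2.30, edgeR adjusted p = 0.566). Mx2 had 0.557 to 0.924 FPKM in CON against 0.587 to 1.09 FPKM in UAC.

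None of the 5 nucleic acid sensors passed the unadjusted threshold. Eif2ak2, the kinase PKR, which halts translation on binding double-stranded RNA, was the most abundant. It was at 4.46, 3.86 and 5.18 FPKM in CON against 4.98, 4.51 and 4.44 FPKM in UAC, with overlapping groups and a 95% interval of -0.26 to 0.27 for the log2 fold change. Ddx58, the sensor RIG-I, was at 2.51 ± 0.198 FPKM in CON against 2.94 ± 0.0697 FPKM in UAC, without overlap, with a 95% interval of -0.14 to 0.51. Ifih1, the sensor MDA5, was at 2.97 ± 0.495 FPKM in CON against 3.06 ± 0.587 FPKM in UAC, and its interval was -0.39 to 0.39. Dhx58, which encodes LGP2, a regulator of both, and Zbp1, a receptor for Z-form nucleic acids, were each highest in UAC replicate 1, at 1.61 and 1.93 FPKM, and otherwise spread across 0.677 to 1.06 and 0.751 to 1.10 FPKM.

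Isg15, the ubiquitin-like protein for which the ISG15 system is named, was at 1.19, 1.68 and 1.29 FPKM in CON against 1.11, 1.36 and 0.915 FPKM in UAC. Its groups overlapped, and its log2 fold change of -0.34 (95% interval -0.96 to 0.28, edgeR adjusted p = 0.726) had the opposite sign to that of Irf7. Usp18, the protease that removes ISG15 and restrains the interferon receptor, was at 0.687, 0.483 and 0.965 FPKM in CON against 1.70, 1.12 and 0.917 FPKM in UAC. UAC replicate 3 fell below CON replicate 3, and the log2 fold change was 0.76 (95% interval -0.02 to 1.55, edgeR adjusted p = 0.561). Herc6, which attaches ISG15 in mouse, ranged from 0.973 to 1.57 FPKM in CON against from 1.16 to 1.68 FPKM in UAC. Trim25, a ubiquitin ligase that acts on RIG-I and whose row includes a pseudogene, was the most abundant of the 4, at 5.11, 4.997 and 5.45 FPKM in CON against 6.34, 5.60 and 5.05 FPKM in UAC, with overlapping groups.

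Rsad2, or viperin, makes a nucleotide that ends viral RNA chains, and it was the third most abundant row, after those of the IFITM genes. It was at 9.95, 7.13 and 12.05 FPKM in CON against 12.5, 13.9 and 14.3 FPKM in UAC. The groups were apart by a narrow margin, with a log2 fold change of 0.45 (SE 0.17, edgeR adjusted p = 0.537). Cmpk2, a nucleotide kinase whose gene lies next to Rsad2, was at 1.34 ± 0.421 FPKM in CON against 1.55 ± 0.112 FPKM in UAC, with overlapping groups. Isg20, an RNA exonuclease, was at 2.61 ± 0.138 FPKM in CON against 2.68 ± 0.121 FPKM in UAC, with a 95% interval of -0.38 to 0.37.

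Parp14, an ADP-ribosyltransferase, was at 5.48, 4.77 and 5.81 FPKM in CON against 7.30, 6.95 and 6.02 FPKM in UAC. Its groups were apart, with a log2 fold change of 0.29 (SE 0.10, edgeR adjusted p = 0.504). Parp9 and Dtx3l, whose proteins form a complex and whose genes meet at their starts on opposite strands, did not differ in this way. Parp9 was at 5.05 ± 1.31 FPKM in CON against 5.32 ± 0.551 FPKM in UAC, and Dtx3l at 2.89 ± 0.331 FPKM in CON against 2.91 ± 0.314 FPKM in UAC.

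The membrane proteins were the most abundant group and the only one with a negative median log2 fold change (-0.27 over 3 rows). The row of Ifitm2 and Ifitm3, which encode proteins that stop viruses from fusing with endosomes, was at 13.8, 13.1 and 13.9 FPKM in CON against 11.4, 12.2 and 9.64 FPKM in UAC. All 3 UAC values were below all 3 CON values, with a log2 fold change of -0.34 (SE 0.11, 95% interval -0.59 to -0.09, edgeR adjusted p = 0.499). Ifitm5, which shares the row, is known as an osteoblast gene, and the values cannot be divided among the 3 genes. Ifitm1, which lies within the same span on the opposite strand, was at 17.8, 14.9 and 17.0 FPKM in CON against 23.1, 11.1 and 18.5 FPKM in UAC, with UAC values on both sides of CON. Bst2, or tetherin, which ties budding viruses to the cell, was at 9.81 ± 0.349 FPKM in CON against 8.39 ± 1.18 FPKM in UAC (edgeR adjusted p = 0.576), with overlapping groups.

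The remaining 7 rows did not pass the unadjusted threshold. The guanylate-binding proteins, GTPases that respond strongly to interferon gamma, are represented by Gbp2 and Gbp5. Gbp2 was at 4.41, 4.64 and 4.20 FPKM in CON against 4.51, 3.66 and 5.16 FPKM in UAC, with UAC values on both sides of CON. Gbp5 was at 1.43 ± 0.0858 FPKM in CON against 1.65 ± 0.421 FPKM in UAC. Ifi27, the most abundant of the others, was at 7.96, 7.16 and 7.98 FPKM in CON against 7.83, 10.5 and 6.93 FPKM in UAC, so its groups overlapped. Ifi35 and Rtp4 were apart, at 4.65 to 4.89 and 5.05 to 5.25 FPKM for Ifi35 and at 0.577 to 1.09 and 1.14 to 1.47 FPKM for Rtp4, in CON and UAC. Ifi44 and Xaf1 overlapped, with log2 fold changes of 0.03 and -0.07.

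**Figure D3:**
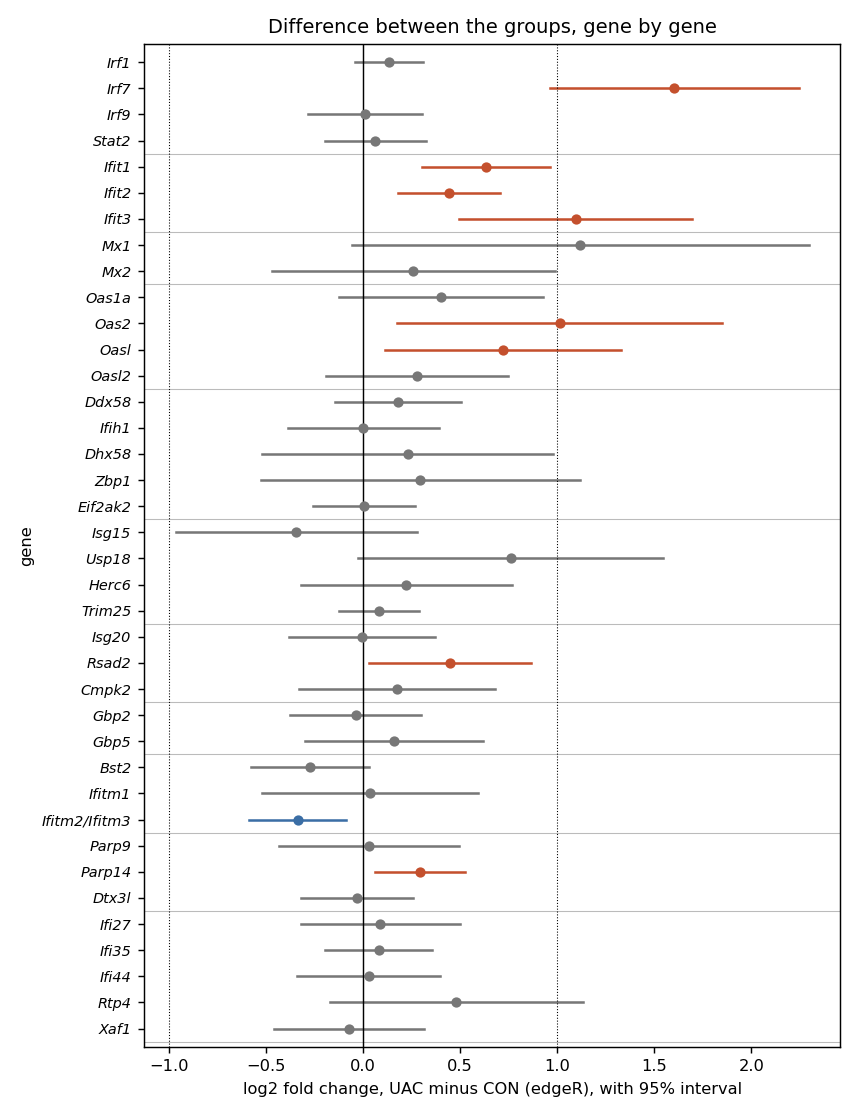
Points are log2 fold changes of UAC minus CON from edgeR for the 38 rows, grouped by role, and lines are 95% intervals. Red marks rows higher and blue rows lower at an unadjusted p under 0.05, grey the others, and dotted lines a 2-fold difference. The interval of Irf7 reaches farthest from 0 on its lower side (0.96), and 30 of 38 intervals lie inside the dotted lines.

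Across the 38 rows, the median log2 fold change was 0.17, with 31 above 0 and 7 below, beside -0.002 over all tested genes and -0.04 over protein-coding genes. For 30 rows the 95% interval excluded a 2-fold difference in either direction. The other 8 were Irf7, Ifit3, Mx1, Oas2, Oasl, Zbp1, Usp18 and Rtp4. All 3 UAC libraries were above all 3 CON libraries in 13 rows (34.2%), where this held for 9.84% of all tested genes and 8.55% of protein-coding genes, and below in 1 row (2.63%), where it held for 5.87%. Besides the 8 higher rows, the 13 were Irf1, Oas1a, Ddx58, Ifi35 and Rtp4.

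Within each group, the same library was often the highest. CON replicate 3 was the highest CON library in 27 of 38 rows, and 41.7% of all tested genes had their highest CON value there. UAC replicate 1 was the highest UAC library in 29 rows (42.6% of all tested genes), and UAC replicate 3 the lowest in 29 (32.1% of all tested genes). On the log2 scale against the CON mean, the median over the 38 rows was -0.02, -0.08 and 0.12 in the CON libraries and 0.38, 0.15 and 0.04 in the UAC libraries. UAC replicate 3 thus lay below CON replicate 3 by this measure. Over all tested genes the same medians were 0.006, -0.03 and 0.04 in CON and 0.09, 0.009 and 0.05 in UAC. The 29 rows that did not pass had a median of -0.03 in UAC replicate 3 and 0.32 in UAC replicate 1.

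Irf7, Ifit1, Ifit2, Ifit3 and the row of Ifitm2 and Ifitm3 stayed under an unadjusted p of 0.05 in each of the 6 fits with a library left out. Oas2 did so in 1 of the 6 fits (without UAC replicate 3), Oasl and Rsad2 in 2 and Parp14 in 3. Without UAC replicate 1 there were 5 higher rows, the 3 IFIT genes, Irf7 and Rsad2, and 2 lower ones, with Bst2 added. At the thresholds of the study that fit left 1 row, Irf7 (log2 fold change 1.67), since Ifit3 fell to 0.91 and Oas2 no longer passed. Its median log2 fold change over the 38 rows was 0.06. Usp18 was at 0.50 in it, and Dhx58 and Zbp1 turned negative, at -0.11 and -0.17. The higher rows numbered 5, 4 and 10 when CON replicate 1, 2 or 3 was left out, while leaving out UAC replicate 2 gave 4 and UAC replicate 3 gave 9.

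**Figure D4:**
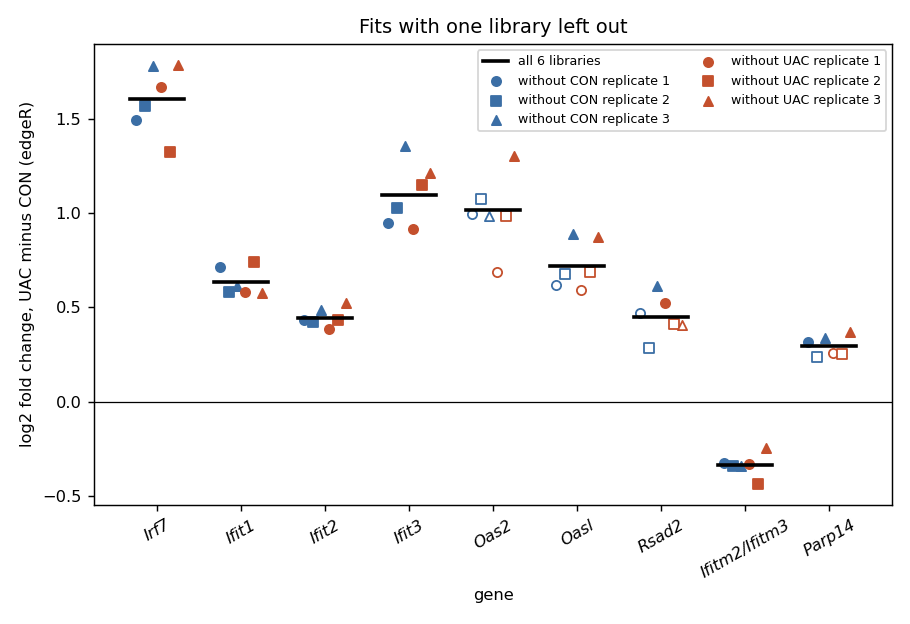
Log2 fold changes from edgeR for the 9 rows with an unadjusted p under 0.05, with all libraries (black bars) and with each library left out (points, filled where the unadjusted p stayed under 0.05). No point crosses 0, and Oas2 falls to 0.69 without UAC replicate 1.

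Upstream of these genes, most of the interferons listed were at or near 0. Ifnb1, Ifng, Ifna1 and Ifnl3 had 0 counts in all 6 libraries, which allows at most 0.0347 to 0.0419 CPM (counts scaled to the library total), for counting error only. Ifne had at most 8 counts in a library and was not tested. Ifnk, an interferon of epithelia, was measured in every library, at 0.984 ± 0.413 FPKM in CON against 1.17 ± 0.290 FPKM in UAC. Of 34 tested rows of upstream genes (Ifnk, receptors, kinases, other IRFs, adaptors and inhibitors), 5 were higher and 1 was lower before adjustment, beside 4.69% and 4.39% of all tested genes, with a median log2 fold change of 0.05, and 0 passed after adjustment in edgeR, DESeq2 or limma. Tlr7, the endosomal receptor for single-stranded RNA that acts through Irf7, was at 1.77, 2.002 and 2.32 FPKM in CON against 3.35, 2.79 and 2.78 FPKM in UAC, without overlap (log2 fold change 0.51, edgeR adjusted p = 0.452). Irf5 was at 2.37, 2.33 and 3.23 FPKM in CON against 3.74, 3.98 and 3.69 FPKM in UAC, and Irf8, a factor of myeloid cells, at 7.35, 6.598 and 8.72 FPKM in CON against 11.8, 9.01 and 9.26 FPKM in UAC. Both sets of values were apart, with log2 fold changes of 0.49 and 0.36.

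Jak2, a kinase of cytokine receptors, was at 9.14 ± 0.373 FPKM in CON against 10.5 ± 0.408 FPKM in UAC, with a log2 fold change of 0.16 (edgeR adjusted p = 0.547). Trex1, a DNase that limits interferon production, was lower, at 4.75 ± 0.109 FPKM in CON against 3.91 ± 0.200 FPKM in UAC (log2 fold change -0.32, edgeR adjusted p = 0.547). Of 6 chemokines that interferon can induce, 4 were tested and none passed the unadjusted threshold. Cxcl10, the standard interferon-induced chemokine, was at 0.246, 0.0558 and 0.195 FPKM in CON against 0.251, 0.104 and 0.231 FPKM in UAC, with overlapping groups.

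Some markers of leukocytes were also higher in UAC at an unadjusted p under 0.05, where 4.69% of all tested genes were higher and 4.39% lower. Of 12 neutrophil markers, 11 were tested, 6 were higher and none was lower. The most abundant was S100a9, at 816 ± 71.5 FPKM in CON against 1041 ± 412 FPKM in UAC, which did not pass. The summed level of the list was 1974 to 2278 FPKM in CON against 4040, 2298 and 2867 FPKM in UAC replicates 1, 2 and 3. It was highest in the library where most of the interferon-stimulated genes were highest. Among UAC libraries, replicate 1 was also highest for the summed B cell, T and NK cell, macrophage, plasmacytoid dendritic cell and muscle lists. It was not the highest for the plasma cell, endothelial, erythroid and chondrocyte lists. Its plasmacytoid dendritic cell sum, 47.8 FPKM, lay within the CON range of 41.1 to 48.0 FPKM. On that list Cox6a2 was at 8.97 FPKM in UAC replicate 1 against 1.48 FPKM in UAC replicate 2. Runx2, the most abundant on it, was lowest in UAC replicate 1 among UAC libraries. The order of these sums therefore does not describe the plasmacytoid dendritic cell list as a whole. The B cell sums were 57.6 to 77.4 FPKM in CON against 89.9, 79.5 and 44.7 FPKM in the same UAC order. Of 8 plasma cell markers, 2 were higher (Jchain and Mzb1, with log2 fold changes of 1.09 and 0.88) and 1 was lower, with a summed level of 126 to 163 FPKM in CON against 190 to 224 FPKM in UAC. Jchain, the most abundant, was at 55.2 ± 14.6 FPKM in CON against 121 ± 20.6 FPKM in UAC. The median log2 fold change of the list was -0.07, so the higher sum does not describe the list as a whole. At an adjusted p under 0.05, DESeq2 called 2 of these 8 and 3 of the 11 tested neutrophil rows. It called 1 row each on the macrophage, T and NK cell and muscle lists. Over all tested genes it called 0.717% higher and 0.447% lower. Neither edgeR nor limma called any row of the cell type lists after adjustment.

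Of 17 T and NK cell markers, 15 were tested and 4 were higher, each at a mean under 3 FPKM in both groups. The summed level, 55.7 to 67.9 FPKM in CON against 66.9 to 81.3 FPKM in UAC, came mostly from Cd4 (36.4 and 33.2 FPKM in the means of CON and UAC) and Nkg7 (19.3 and 26.6 FPKM), neither of which passed. Of 13 tested macrophage and monocyte markers, 1 was higher and 2 were lower. The higher one was Lyz2, at 782 ± 96.9 FPKM in CON against 1231 ± 265 FPKM in UAC, which made up most of the summed level of 908 to 1128 FPKM in CON against 1181 to 1728 FPKM in UAC. The lower ones were Cd68 and Csf1r, with log2 fold changes of -0.30 and -0.23. None of 11 B cell markers was higher and 1 was lower, and of 9 tested endothelial markers none was higher and 3 were lower. Of 10 markers of plasmacytoid dendritic cells, which produce interferon through Irf7, 7 were tested and none passed. The most abundant were Runx2 (14.2 and 12.5 FPKM in the means of CON and UAC), Tcf4 (9.17 and 9.22 FPKM) and Spib (8.59 and 9.30 FPKM). The row of Runx2 also holds a 5S_rRNA entry, and its values cannot be divided between them. Siglech, a defining marker, was at only 0.169 ± 0.138 FPKM in CON against 0.211 ± 0.00582 FPKM in UAC, and Klk1 and Ly6d had 0 counts in all libraries. With the defining marker so low, the list cannot show whether plasmacytoid dendritic cells differed between the groups. The part of any of the listed cell types in the levels of the interferon-stimulated genes was not tested.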

How the data were processed

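Whole-tissue RNA of 3 CON and 3 UAC libraries, depleted of ribosomal RNA, was compared as UAC minus CON. The authors trimmed reads with cutadapt (1.9 in the submitters' notes), mapped them with Bowtie2 and Hisat2 and assembled them with StringTie. Not given in the sources used here were the genome build, the strand setting and how circRNAs were called. The deposited gene table holds whole-number counts and FPKM, and other deposited tables hold lncRNA FPKM and circRNA junction counts. Absent genes are listed at 0.0001 FPKM by the authors. A further 12 per-sample columns (coverage and scaled circRNA values) were not used.

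Counts of genes whose FPKM averaged 0.1 or more entered edgeR 4.0.16 (quasi-likelihood test after TMM scaling), with Benjamini-Hochberg adjustment over all 30668. SEs were derived from the coefficient and its F value. Fold changes are from counts and levels are FPKM. The members, roles and other lists were chosen with earlier results of these data known. Named with all library values are the genes the study names, rows with an unadjusted p under 0.05, the most abundant row of each role, Tlr7, Irf5 and Irf8 by smallest p, and Cxcl10. A further gene of the naming rule is not reported here. Oas1a, Isg15, Usp18, Jak2, Trex1, Ifnk, Ifne, Cxcl9, Ccl5, Ccl2 and the single cell type markers were singled out after their values were seen. Alternatives were other filters, median-ratio size factors, a robust fit, DESeq2 1.42.0, limma 3.58.1 on log2 of FPKM plus 0.1 or 1, a replicate block, and each library left out. The fits were tested on simulated counts. Intervals cover 95%.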

Additional observations from a re-analysis of the deposited data

How the results depend on the processing

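The median log2 fold change of the 38 rows stayed above 0 in every fit run, at 0.06 to 0.21 with a library left out (0.06 without UAC replicate 1) and 0.10 at a minimum mean FPKM of 1, which dropped 5 rows. Rows higher at an unadjusted p under 0.05 numbered 8, and 4 to 10 with a library left out, 6 at the minimum of 1, 10 in DESeq2 and 7 in limma. Lower rows numbered 1, and 1 to 2 with a library left out. Rows at the study's thresholds numbered 3, and 1 to 4 with a library left out, 1 in limma with FPKM plus 1 and 4 in DESeq2. Rows called at an adjusted p under 0.05 numbered 0 in edgeR and limma, 0 in each fit with a library left out and 3 in DESeq2. With the replicate block 6 rows were higher, 1 lower and 2 at the study's thresholds. Deviations of same-numbered libraries correlated at -0.0196, -0.0120 and -0.0310, so no shared effect of the replicate number was seen. With so few libraries, these values cannot show whether the numbers mark pairs or rounds of harvest. The cause of the shifts between fits was not tested.

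With all libraries kept, the sign changed for Ifih1 (-0.00064) and Ifitm1 (-0.014) with the replicate block, for Dtx3l in limma (0.012 with FPKM plus 0.1, 0.0093 with FPKM plus 1), and for Isg20 at the minimum of 1 (0.0033), with no filter (0.0019), with median-ratio size factors (0.0015), in DESeq2 (0.0011) and in limma (0.036 with FPKM plus 0.1, 0.027 with FPKM plus 1). With a library left out, signs were mixed for Irf9 (-0.11 to 0.12), Stat2 (-0.041 to 0.15), Ifih1 (-0.13 to 0.12), Dhx58 (-0.11 to 0.48), Zbp1 (-0.17 to 0.54), Eif2ak2 (-0.075 to 0.098), Isg20 (-0.025 to 0.015), Gbp2 (-0.16 to 0.071), Gbp5 (-0.016 to 0.32), Ifitm1 (-0.18 to 0.27), Parp9 (-0.16 to 0.17), Dtx3l (-0.086 to 0.053), Ifi27 (-0.12 to 0.21) and Ifi44 (-0.076 to 0.16). None of these rows passed the unadjusted threshold with all libraries.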

Other observations

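Short assembled rows without a strand lie inside or beside 3 of these genes and were not part of the set. The row inside an intron of Ifih1, on chromosome 3 from 48597024 to 48597428, had 17, 17 and 47 counts in CON and 60, 70 and 58 counts in UAC, with a log2 fold change of 1.31 (SE 0.47, edgeR adjusted p = 0.520), while Ifih1 itself had 2.97 ± 0.495 FPKM in CON against 3.06 ± 0.587 FPKM in UAC. A pair of such rows inside Herc6 had log2 fold changes of 0.94 and -0.95 (edgeR adjusted p = 0.596 and 0.622), in opposite directions. The row beside Isg15 had 19, 12 and 57 counts in CON and 63, 29 and 20 counts in UAC, with overlapping groups. Of the circular RNAs, 1 came from a gene of the set, Ifih1, with 1 junction read in UAC replicate 3 and 0 in the other libraries.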
